A study of Mus musculus with 4 samples.

Results

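Chil3 (ENSMUSG00000040809), the mouse gene of the secreted chitinase-like protein Ym1, was followed through the granulocyte and monocyte stages of single-cell libraries from healing tibial fractures. It is 1 of 32285 genes listed in the count matrices. The gene was chosen by its levels over these stages and libraries, which were already known, so its levels are given as a description and carry no test. The calluses came from 20-month-old male C57BL/6J mice, 7 days after treatment with either of the microgels: 2 libraries from adenosine-containing microgel and 2 from control microgel, which was empty. All animals were aged and fractured, and no young or unfractured animals entered the comparison. The labels name bone marrow as the source, while the protocol describes minced callus that was strained, depleted of red blood cells and sorted for viable cells. Whether each library is a different animal is not stated. The p-values of adenosine against control therefore measure only the spread between libraries. Those of Chil3-positive against Chil3-negative monocytes measure only how the difference within a library varies between libraries.

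Ym1 belongs to the glycosyl hydrolase 18 family but lacks chitinase activity, and it is known as a secreted product of alternatively activated mouse macrophages that interleukin-4 and STAT6 induce. In bone marrow the gene is also a classical transcript of maturing neutrophil precursors. Neutrophils arise from granulocyte-monocyte progenitors through dividing precursors, which fill the secondary granules with Camp, Ngp and Ltf, and end as non-dividing mature cells with Cxcr2 and Mmp9. Monocytes arise from the same progenitors, leave as Ly6c2-high classical cells, and can become nonclassical monocytes, macrophages or dendritic-like cells.

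The locus lies at chr3:106147554-106167564 of GRCm38, on the minus strand, with 11 exons. The family copy Chil4 (Ym2, chr3:106201490-106219507, minus strand) lies on the same chromosome with a start site window that is 90.1% identical over 223 aligned columns. Both windows are shown because the genes look alike here and gave unlike counts: 207409 UMIs (unique molecular identifiers, each standing for 1 captured RNA molecule) for Chil3 and 16 for Chil4 over the stages described. The 250 bases before each start, from RefSeq on GRCm38.p6, are printed 5′ to 3′ on the gene's strand, with matches to the motifs searched in capitals. The Chil3 window is chr3:106167565-106167814 and the Chil4 window chr3:106219480-106219729.
Chil3: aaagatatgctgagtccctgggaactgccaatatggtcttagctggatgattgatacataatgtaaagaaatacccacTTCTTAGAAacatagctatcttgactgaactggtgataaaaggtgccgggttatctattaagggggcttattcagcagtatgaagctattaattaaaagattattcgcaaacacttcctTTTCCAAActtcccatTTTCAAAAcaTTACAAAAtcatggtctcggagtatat
Chil4: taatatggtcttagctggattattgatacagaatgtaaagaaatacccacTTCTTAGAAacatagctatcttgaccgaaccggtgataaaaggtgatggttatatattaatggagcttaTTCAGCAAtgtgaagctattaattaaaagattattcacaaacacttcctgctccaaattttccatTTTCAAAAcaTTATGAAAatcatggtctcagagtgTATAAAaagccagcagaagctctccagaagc
Motifs were searched on both strands. The STAT type, TTCNNNGAA, is in 7.02% of 32851 promoter windows of this length, and the Chil3 window holds it from position -172 to -164. The C/EBP type, TTNNGNAA, is in 36.8% of windows, and 3 matches start at -53, -37 and -27 in the Chil3 window. The Chil4 window holds the same STAT type letters from -200 to -192 and also 3 C/EBP type matches, which start at -131, -66 and -56. The STAT6 type, TTC and GAA with 4 free bases between them (5.85% of windows), and the PU.1 type, GAGGAA (23.3%), have no match in the Chil3 window. TATAAA (12.4%) starts at -31 before Chil4. Chil3 has the same letters from -3, so they run across its annotated start and past the end of the 250 bases shown. This difference in distance holds for the RefSeq starts only. GENCODE places the Chil4 start at 106219507, inside the Chil4 window and upstream of the RefSeq start. Its Chil3 start, 106167564, adjoins the Chil3 window. The motif's distance from the GENCODE start of Chil4 was not computed, so no difference between the copies is read from it. These are matches of letters, and binding was not measured. The last 500 bases of the transcripts, where this 3′ assay reads, are 91.8% identical between the genes, and 37 of 411 words of 90 bases at the Chil3 end also occur in Chil4, so the split of reads between the copies is uncertain to that extent.

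The deposited matrices held 9402 and 9170 barcodes in adenosine libraries 1 and 2, against 9949 and 6753 in control libraries 1 and 2, with 32277757 to 68117846 UMIs per library. After filters, 31280 cells were kept, and 26326 of them (84.2%) were myeloid by their markers. Between 13 and 28 barcodes were shared by any pair of libraries. Cells were assigned to stages by marker genes that do not include Chil3. Genes outside the gate followed the names: Cebpe, a transcription factor of granulocyte precursors, had a median of 556 CPM (UMIs per 1000000 UMIs of the same cells) in dividing neutrophils, 334 in immature and 41.0 in mature ones, while Mmp9 had 85.3, 1681 and 2074 CPM in the same order. Irf8, a monocyte lineage factor, had 200 CPM in classical monocytes and 8.65 in dividing neutrophils. Control library 2 stood apart. Mature cells made up 58.1% and 55.8% of neutrophils in the adenosine libraries, against 58.8% in control library 1 and 95.1% in control library 2, which held only 4 progenitors and 44 dividing neutrophils. Among dividing and classical monocytes and macrophages, macrophages were 12.2% and 6.59% in the adenosine libraries, against 13.3% in control library 1 and 53.0% in control library 2. Results that rest on control library 2 are therefore also given without it.

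Chil3 was highest in dividing neutrophils in every library. There it had 6341 and 6755 CPM in adenosine libraries 1 and 2, against 6076 and 4323 CPM in control libraries 1 and 2, a mean of 5874 ± 1071 CPM (SD, n = 4 libraries). Nearly all of these cells held it: 100% and 99.6% in the adenosine libraries, and 99.4% and 97.7% in the controls, had at least 1 UMI. A cell carried on average 56.0 and 71.3 UMIs in the adenosine libraries, against 56.2 and 61.9 in the controls.

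Before that stage, progenitors with Mpo and Elane, the primary granule genes, had 609 and 690 CPM in the adenosine libraries, against 502 CPM in control library 1 and 1271 CPM in the 4 cells of control library 2. Dividing neutrophils were thus 10.4, 9.79 and 12.1 times higher than progenitors in the 3 libraries with more than 4 progenitors. The progenitors were not uniform. Those with at least 50 immature-neutrophil marker UMIs per 10000 had 2181 and 2651 CPM in the adenosine libraries and 1726 CPM in control library 1, in 126, 99 and 69 cells. The others had 185 and 160 CPM in the adenosine libraries and 173 CPM in control library 1. The earlier Kit-bearing progenitors had 17.9 and 28.9 CPM in the adenosine libraries, against 76.2 CPM in control library 1 and no Chil3 UMI in the 3 cells of control library 2. In those 3 libraries the gene was therefore lower in early progenitors, and in progenitors with few immature-neutrophil transcripts, than in the other progenitors.

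After division, the level was lower again. Immature neutrophils had 2877 and 2614 CPM in the adenosine libraries, against 2371 and 1745 CPM in the controls, a mean of 2402 ± 484 (SD, n = 4). Dividing cells exceeded immature ones 2.20-fold and 2.58-fold in the adenosine libraries and 2.56-fold and 2.48-fold in the controls. Mature neutrophils had 105 and 86.0 CPM in the adenosine libraries, against 81.3 and 7.51 CPM in the controls. Immature cells exceeded mature cells 27.4-fold and 30.4-fold in the adenosine libraries, and 29.2-fold and 232-fold in the controls. The ranges over the 4 libraries did not overlap between these neutrophil stages.

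**Figure D1:**
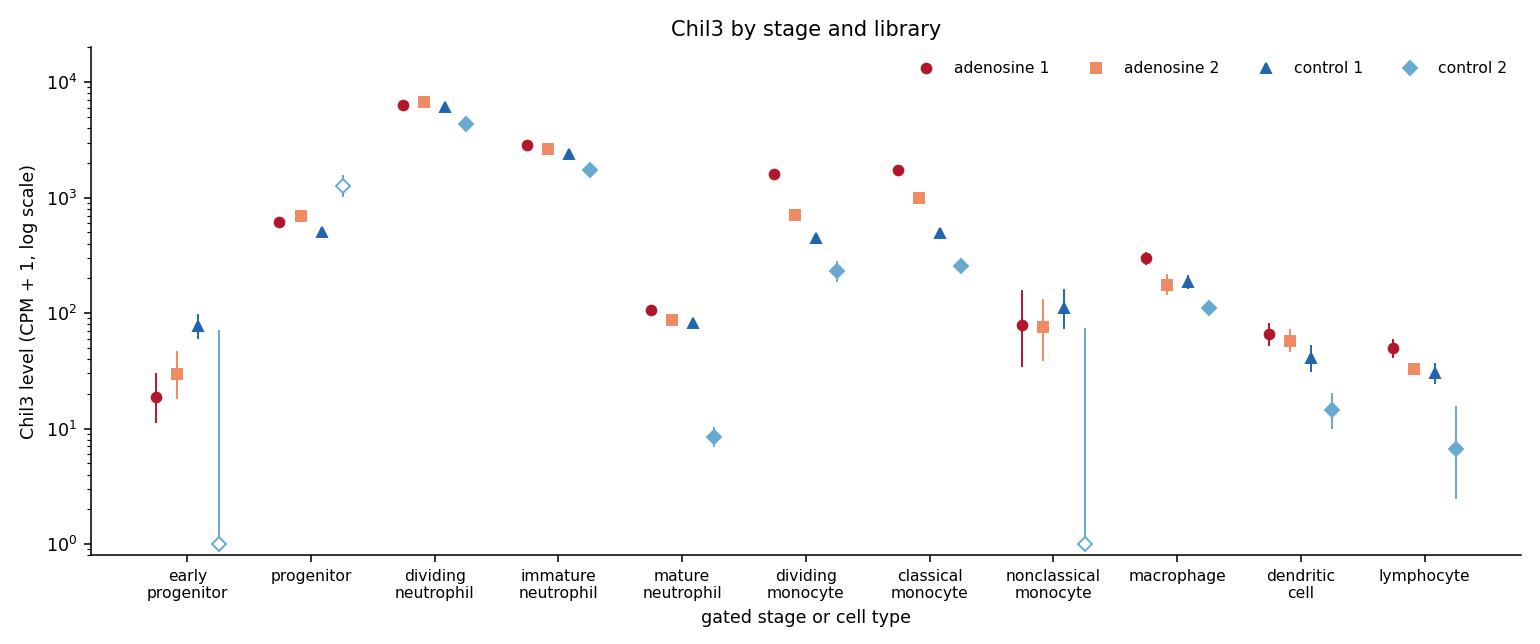
Chil3 level (CPM + 1, log axis) in each gated stage. Each point is 1 library, bars are 95% Poisson intervals that cover counting error only, and open symbols mark sums of under 20 cells; dividing neutrophils sit between 4323 and 6755 CPM and mature neutrophils between 7.51 and 105 CPM.

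In droplet data, RNA released from broken cells gives some UMIs to cells that do not express a gene, and lymphocytes, which lack Chil3, measure that level here. Chil3 was in 16.0% and 14.7% of mature neutrophils in the adenosine libraries, against 15.3% and 1.73% in the controls, at median depths of 2228 to 2681.5 UMIs. Lymphocytes had it in 13.1% and 22.5% of cells in the adenosine libraries, against 15.5% and 3.10% in the controls, at median depths of 4128 to 6547 UMIs. Per cell, mature neutrophils held 1.06 and 0.780 times the Chil3 UMIs of lymphocytes in the adenosine libraries and 1.13 and 0.714 times in the controls. The lymphocyte reference is imprecise. In adenosine library 1 the lymphocyte with the most held 49 of the 135 Chil3 UMIs in lymphocytes. In control library 2 all 129 lymphocytes together held 4. The gate also left out lymphocytes with 50 or more immature and mature neutrophil marker UMIs per 10000. Counted per cell, mature neutrophils as a whole lay near the lymphocyte level, and the stage's average Chil3 is not read as expression. The least mature cells of the gate held more, as given below. Relative to the cell's own RNA, mature neutrophils lay above lymphocytes in the adenosine libraries and control library 1. In control library 2 they did not differ from lymphocytes beyond counting error. With each cell thinned to 1500 UMIs, mature neutrophils had Chil3 in 11.6% and 9.32% of cells in the adenosine libraries, against 10.5% and 0.893% in the controls, while lymphocytes had it in 4.52% and 5.41% of cells in the adenosine libraries, against 4.66% and 0.813% in the controls.

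The gate's border between immature and mature cells held few cells: 5.57% of 19360 neutrophils lay near it. Along a finer scale, the share of mature markers among a neutrophil's stage markers in 10 equal bins, Chil3 was lower in each bin than in the one before through the fourth bin in every library, and through the last in adenosine library 1. In the first bin it had 3861 and 3545 CPM in the adenosine libraries, against 3264 and 2812 CPM in the controls. In the fifth bin, 374 and 274 CPM in the adenosine libraries stood against 302 and 248 CPM in the controls. In that bin control library 2 thus lay close to adenosine library 2. In the sixth bin, the least mature within the mature gate, 32.1% and 29.1% of cells in the adenosine libraries had Chil3. In the controls 41.1% and 14.7% had it, and each share was above that of lymphocytes in the same library. In the last bin the adenosine libraries had 69.5 and 60.1 CPM, against 66.8 and 5.17 CPM in the controls. There 11.6% and 11.4% of cells in the adenosine libraries had Chil3, against 12.1% and 1.40% in the controls, each below lymphocytes. Every bin held at least 22 cells in every library.

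**Figure D2:**
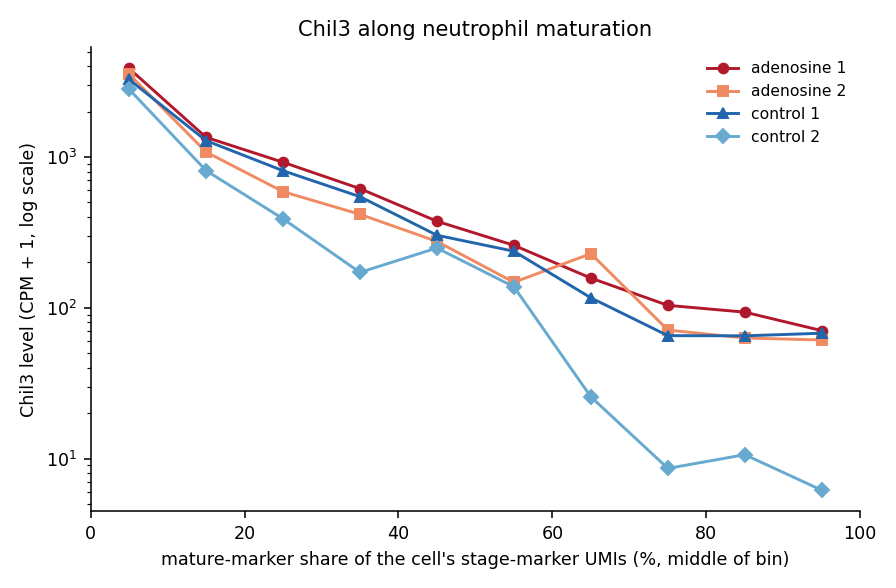
Chil3 level (CPM + 1, log axis) in neutrophils binned by the share of mature markers among their stage markers, 1 line per library. All 4 lines run downward over the first 4 bins, with 2812 to 3861 CPM in the first bin and 5.17 to 69.5 CPM in the last.

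The level over all neutrophils differed less between libraries once their make-up was held equal. Over all neutrophils Chil3 had 2536 and 2887 CPM in the adenosine libraries, against 2222 and 327 CPM in the controls. With dividing, immature and mature cells given equal weight, it had 3108 and 3152 CPM in the adenosine libraries, against 2843 and 2025 CPM in the controls. Control library 2 thus lay much nearer to control library 1 at equal weights than as found. Of all Chil3 UMIs, dividing neutrophils held 37.2% and 47.1% in the adenosine libraries and 47.7% and 39.0% in the controls, though they were at most 10.2% of the neutrophils.

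**Figure D3:**
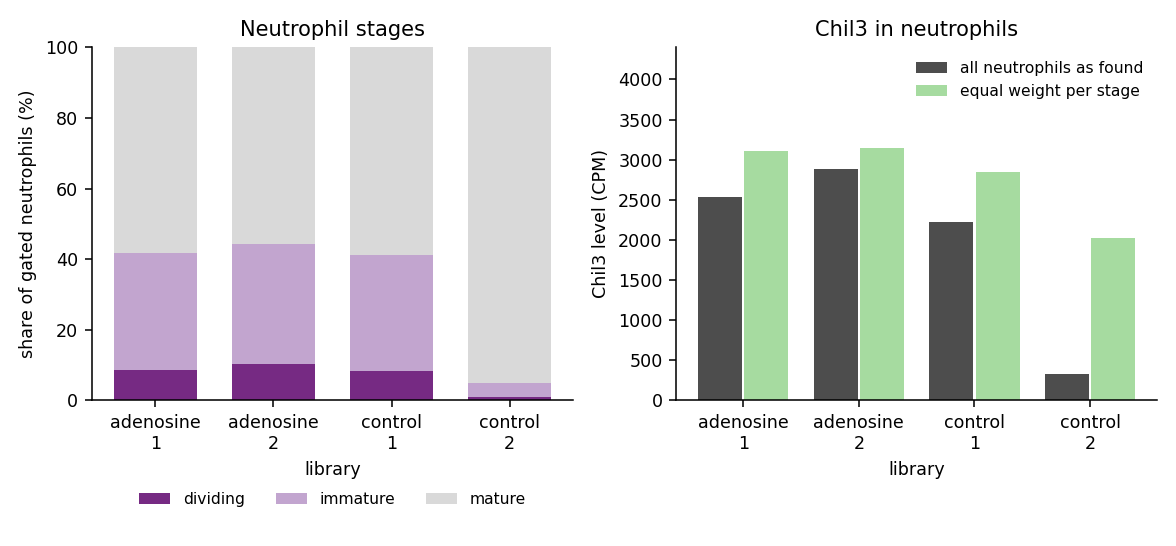
Left, the share (%) of dividing, immature and mature cells among the neutrophils of each library; right, Chil3 CPM over all neutrophils as found and with the 3 stages weighted equally. Control library 2 is 95.1% mature and has 2025 CPM with equal weights, against 327 CPM as found.

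Classical and dividing monocytes also had Chil3 well over the lymphocyte level. Classical monocytes had 1734 and 983 CPM in the adenosine libraries, against 497 and 253 CPM in the controls. It was in 86.4% and 79.7% of these cells in the adenosine libraries, against 71.9% and 45.1% in the controls, at median depths of 9007.5 to 10335 UMIs. Per cell they held 73.8 and 39.6 times the Chil3 UMIs of lymphocytes in the adenosine libraries, and 25.2 and 82.3 times in the controls. The proportion of Chil3 to the secondary granule genes was taken as Chil3 UMIs for each UMI of Camp, Ngp and Ltf together. Classical monocytes held 7.14 and 2.88 in the adenosine libraries and 1.19 and 4.38 in the controls. Dividing neutrophils held 0.0819 and 0.0643 in the adenosine libraries and 0.0650 and 0.0450 in the controls. Lymphocytes held 0.164 and 0.0914 in the adenosine libraries and 0.0710 and 0.121 in the controls. What this difference comes from was not tested.

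Dividing monocytes were close to classical ones, at 0.921 and 0.720 times their level in the adenosine libraries and 0.906 and 0.911 times in the controls. They had 1597 and 708 CPM in the adenosine libraries, against 450 and 230 CPM in the controls. Nonclassical monocytes, the Nr4a1-dependent patrolling cells, had 78.2 and 74.2 CPM in the adenosine libraries, against 110 CPM in control library 1. None of the 12 nonclassical cells of control library 2 had a Chil3 UMI, which allows up to 58.5 CPM at a floor of 3 counts (the 95% Poisson interval drawn in the plot by stage reaches 72.0 CPM). Per cell they held 1.15 and 1.43 times the Chil3 UMIs of lymphocytes in the adenosine libraries and 2.28 times in control library 1, which is near background. Dendritic cells, at 64.7 and 56.8 CPM in the adenosine libraries, against 39.9 and 13.4 CPM in the controls, held 2.30 to 4.50 times as many per cell as lymphocytes.

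Macrophages, the cells in which Ym1 is best known, had less than classical monocytes in every library. They had 296 and 176 CPM in the adenosine libraries, against 185 and 110 CPM in the controls. Classical monocytes exceeded macrophages 5.86-fold and 5.59-fold in the adenosine libraries, and 2.68-fold and 2.30-fold in the controls. Macrophages with Arg1, the alternative-activation arginase, had less Chil3 than those without in each library. Arg1-positive cells had 79.7 and 145 CPM in the adenosine libraries and 66.2 and 53.5 CPM in the controls, while Arg1-negative cells had 368 and 183 CPM in the adenosine libraries and 195 and 163 CPM in the controls. Those with a UMI of Mrc1, the mannose receptor, were likewise lower than those without in each library: 184 and 141 CPM in the adenosine libraries and 118 and 68.1 CPM in the controls with it, against 553 and 188 CPM in the adenosine libraries and 216 and 172 CPM in the controls without it. Arg1-positive macrophages numbered 24 and 12 in the adenosine libraries, against 12 and 261 in the controls, and held 22 and 17 Chil3 UMIs in the adenosine libraries, against 8 and 129 in the controls. The share of cells with Chil3 did not follow the levels throughout: with Mrc1 it was 47.2% and 64.7% in the adenosine libraries and without it 46.7% and 50%, and with Arg1 it was 50% in adenosine library 1 and without it 46.2%.

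From the monocyte to the macrophage end, 9.26% of cells lay near the gate's border. In 5 bins of the share of macrophage markers, the first bin had 2094 and 1157 CPM in the adenosine libraries, against 615 and 102 CPM in the controls. The last bin had 112 and 112 CPM in the adenosine libraries, against 79.1 and 69.4 CPM in the controls. Chil3 was lower in each successive bin in the adenosine libraries and in control library 1. In control library 2 the second bin, with 337 CPM, was highest, and the first bin held 91 cells.

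**Figure D4:**
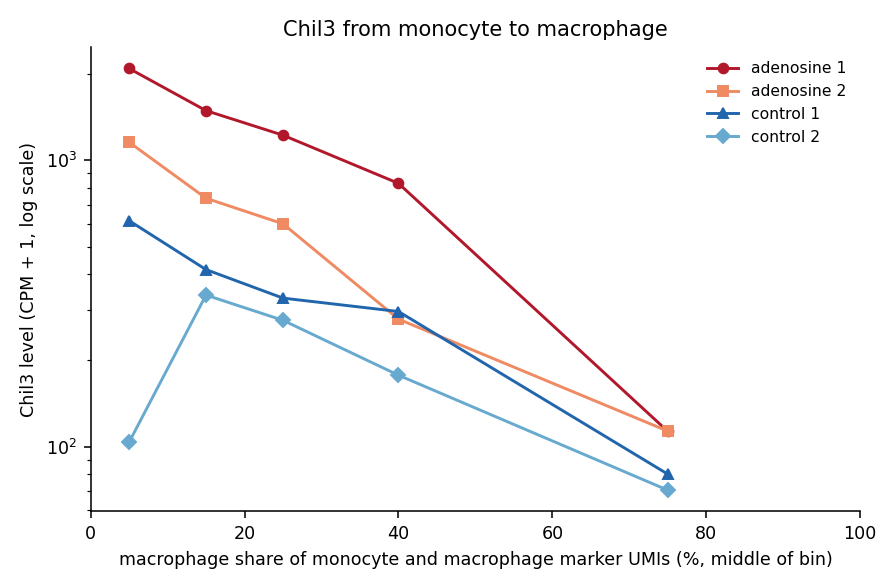
Chil3 level (CPM + 1, log axis) in monocytes and macrophages binned by the share of macrophage markers among their stage markers, 1 line per library. The first bin spans 102 to 2094 CPM over the libraries and the last bin 69.4 to 112 CPM.

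Over the stages, immature neutrophils lay above classical monocytes in every library, 1.66-fold and 2.66-fold in the adenosine libraries and 4.77-fold and 6.91-fold in the controls. Next came classical monocytes (867 ± 653 CPM, SD, n = 4) and dividing monocytes (746 ± 600 CPM) in the adenosine libraries, with progenitors below them, whereas in control library 1 progenitors (502 CPM) and classical monocytes (497 CPM) did not differ beyond their counting error, and in control library 2 the progenitor level rests on 4 cells. Macrophages (192 ± 77.2 CPM) took the next place in every library, above mature neutrophils (70.0 ± 42.9 CPM). Dividing monocytes lay below classical ones in each of the 4 libraries, by less than the spread between libraries, and the ranges over libraries overlapped for the mature neutrophils, nonclassical monocytes and dendritic cells.

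Set by treatment, Chil3 in classical monocytes was above both controls in each adenosine library, and the group means were 1359 and 375 CPM. The difference of mean log2(CPM + 1) was 1.88, with a pooled SD between libraries of 0.64, and 1.39 without control library 2. The libraries of a group also differed widely from each other, at 1734 and 983 CPM in the adenosine group and 497 and 253 CPM in the control group. Dividing monocytes showed the same order, with a log2 difference of 1.72 (pooled SD 0.76), and 1.24 without control library 2. In dividing neutrophils the difference was 0.35 (pooled SD 0.25) and in immature neutrophils 0.43 (pooled SD 0.23). Without control library 2 these were 0.11 and 0.21.

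The same order of libraries was common among genes. Both adenosine libraries lay above both controls for 13.2% of 11355 genes in classical monocytes, 14.0% of 10143 in immature neutrophils, 13.8% of 10702 in mature neutrophils and 13.1% of 8945 in macrophages. A log2 fold change at least as high as that of Chil3 was found for 0.370% of genes in classical monocytes, 17.5% in immature neutrophils, 2.76% in mature neutrophils and 6.23% in macrophages. Since Chil3 was chosen with its values known, these shares place it among the genes and do not test it.

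The distribution over single monocytes differed in the same order. Cells with at least 30 Chil3 UMIs were 21.5% and 9.39% of classical monocytes in the adenosine libraries, against 0.987% and 0.442% in the controls. Cells with none were 13.6% and 20.3% in the adenosine libraries, against 28.1% and 54.9% in the controls. Thinned to 1500 UMIs, the share with Chil3 was 69.9% and 55.4% in the adenosine libraries, against 38.6% and 24.0% in the controls. Among the cells that had the gene, the median was 17 and 9 UMIs in the adenosine libraries, against 4 and 3 in the controls. The summed neutrophil markers in the same monocytes were 3732 and 2833 CPM in the adenosine libraries, against 3436 and 2894 CPM in the controls, so the 2 groups overlapped in them.

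In macrophages Chil3 overlapped between the groups, with a log2 difference of 0.67 (pooled SD 0.53). It was 0.30 without control library 2 and likewise 0.30 without adenosine library 1, and 1.05 without either of the others. In mature neutrophils the difference was 1.86 (pooled SD 1.64) and 0.22 without control library 2, near the per-cell level of lymphocytes. Lymphocytes had 48.5 and 31.8 CPM in the adenosine libraries, against 29.1 and 5.61 CPM in the controls, the same order of groups in cells that lack the gene. With the lymphocyte UMIs per cell subtracted, the log2 difference in classical monocytes was 1.89. In progenitors the difference was -0.30 with the 4 cells of control library 2 and 0.37 without that library. Across all genes, edgeR's quasi-likelihood test called 0.00% in immature neutrophils, mature neutrophils, classical monocytes and macrophages at an adjusted p of 0.05. At an unadjusted p of 0.05, 174 of 10143, 267 of 10702, 178 of 11355 and 162 of 8945 genes passed in these stages. Each is under the share of 0.05 that evenly spread p-values would give. DESeq2 called 2, 34, 5 and 2. None of the 10 listed gene groups beside the chitinase family had a member called in any of these 4 stages by edgeR.

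Within each library, classical monocytes with at least 1 Chil3 UMI differed from those with none. Major histocompatibility complex (MHC) class II and other dendritic-cell genes were among those lower in Chil3-positive cells, and granule and neutrophil-like genes among those higher. Positive cells numbered 475 and 577 in the adenosine libraries and 656 and 204 in the controls, negative cells 75 and 147 in the adenosine libraries and 256 and 248 in the controls. Their depth was similar, with medians of 8873.5 to 10403.5 UMIs in positive cells and 8946 to 10842 in negative ones. With the library as a block and Chil3 left out, 523 of 10324 genes were called (5.07%) by edgeR's quasi-likelihood test at an adjusted p of 0.05: 242 higher (2.34%) and 281 lower (2.72%) in positive cells. A negative cell may still express the gene below detection.

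Of the 12 genes of dendritic-cell-like monocytes, 11 fell, with a median log2 fold change of -1.55 over the list, against 0.00 over all genes. H2-Ab1, an MHC class II chain, had 216 and 643 CPM in positive cells of the adenosine libraries and 324 and 358 CPM in those of the controls. In negative cells it had 845 and 1423 CPM in the adenosine libraries and 982 and 998 CPM in the controls, a log2 fold change of -1.497 ± 0.103 (SE; adjusted p = 2.03e-06, edgeR). Cd74, the invariant chain, fell likewise (log2 -1.32), as did Ciita, the class II transactivator (-1.33), Flt3, the dendritic growth factor receptor (-1.43), and Cd209a, a lectin of monocyte-derived dendritic cells (-2.99). The member that did not pass was Batf3 (log2 -0.45, adjusted p = 0.245, edgeR). Cd209a, H2-Ab1, Klrd1 and Flt3 also served as markers in the gate.

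Of 13 tested secondary and tertiary granule genes 9 rose (median log2 0.58), and of 18 genes of neutrophil-like monocytes 10 rose (median 0.57). Mmp8, neutrophil collagenase, had 426 and 131 CPM in positive cells of the adenosine libraries and 178 and 89.9 CPM in those of the controls. Its negative cells had 203 and 82.3 CPM in the adenosine libraries and 123 and 31.0 CPM in the controls, a log2 fold change of 0.92 ± 0.12 (SE; adjusted p = 0.000842, edgeR). Cd177, a neutrophil surface protein, rose by 0.87, Lcn2, a siderophore-binding granule protein, by 0.85 and Hp, haptoglobin, by 0.68. Camp, Ngp and Ltf, the most abundant secondary granule genes, had log2 fold changes of 0.10, 0.01 and 0.18 and did not pass. Of these genes Mmp8, Cd177, Lcn2, Camp, Ngp and Ltf also served as markers in the gate, and Hp did not. The summed neutrophil markers were higher in positive cells, at 4049 and 3049 CPM in the adenosine libraries and 3463 and 3580 CPM in the controls, against 1773 and 2020 CPM in negative cells of the adenosine libraries and 3367 and 2215 CPM in those of the controls. In monocytes with under 50 neutrophil-marker UMIs per 10000, 487 genes were called over all genes tested. Of the lists, 6 of 13 granule genes and 7 of 18 neutrophil-like genes were called higher there. S100a9, a calprotectin subunit, no longer passed there (adjusted p = 0.869, edgeR), but it is itself one of the neutrophil markers by which cells were removed. So are S100a8, Lcn2, Mmp8, Camp, Ngp and Ltf, so the list counts in this subset partly reflect the cut itself.

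**Figure D5:**
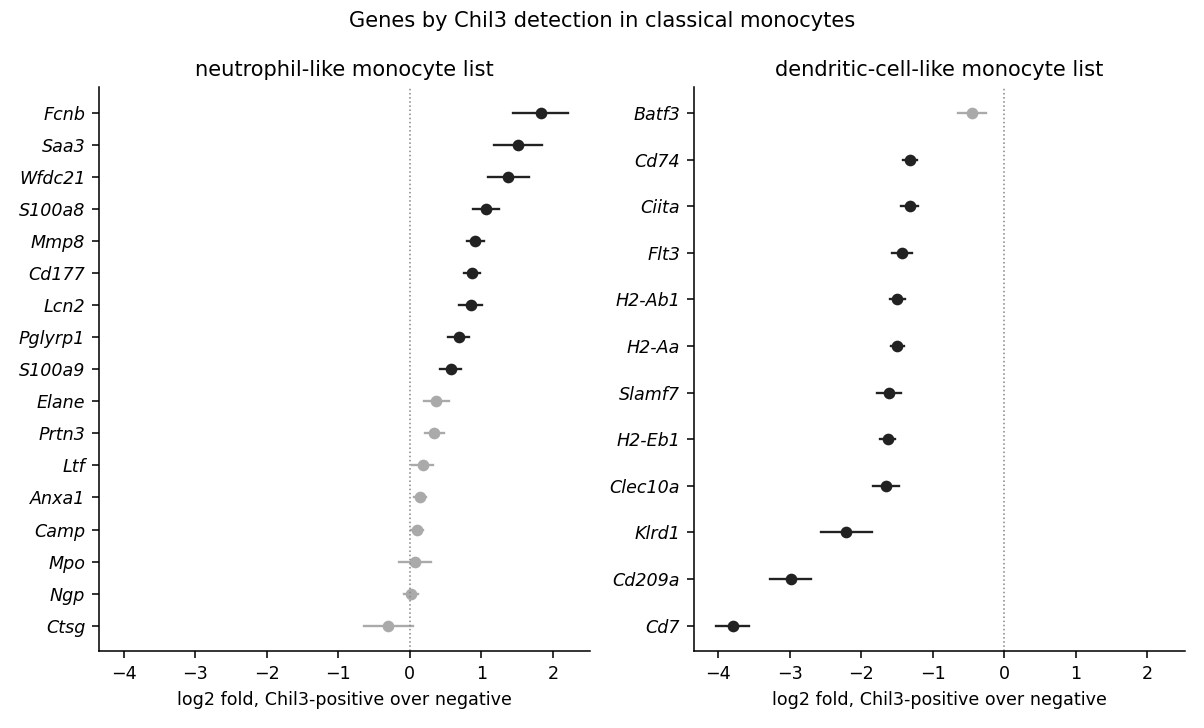
Log2 fold change (± SE) in Chil3-positive against Chil3-negative classical monocytes for genes of the neutrophil-like and dendritic-cell-like monocyte lists (1 neutrophil-like gene is not shown); dark points have an adjusted p under 0.05 by edgeR and grey points do not. The dendritic-cell-like genes lie at negative values, with 11 of 12 called, and the called neutrophil-like genes lie at positive values.

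Of the remaining lists, 4 of 15 alternative-activation genes fell, the lectins Mrc1 (log2 -1.47), Clec10a (-1.66) and Mgl2 (-4.27) and the chemokine Ccl24 (-1.01), and none rose. Without the cells at 10 or more dendritic-marker UMIs per 10000, 1 of 12 tested members was called, with 85 calls over all genes tested. Mrc1 then had -0.50 (adjusted p = 0.332, edgeR) and Clec10a -0.74 (adjusted p = 0.177, edgeR). Ccl24 was lower in positive cells of 3 of the 4 libraries, and its adjusted p reached 0.245 (edgeR) when a library was left out. Among 12 monocyte surface genes Ly6c2 (0.47), the marker of classical monocytes, and Itgam (0.27), an integrin, rose, while Cx3cr1 (-0.40), a fractalkine receptor, and Cd36 (-1.51), a scavenger receptor, fell. Of these 4, Cd36 alone passed whichever library was left out; the adjusted p of the others reached 0.112, 0.154 and 0.123 (edgeR), in the order Ly6c2, Itgam and Cx3cr1. Of 14 transcription factors Cebpb (0.24) and Cebpd (0.40) rose and Irf4 (-0.93) fell, but none was called without adenosine library 1, in thinned cells or without dendritic-marker cells. No gene of the cell division (10 tested), macrophage (12), primary granule (7), adenosine (6) or chitinase (2) lists was called.

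Among called genes with at least 20 CPM in the higher mean and the same direction in all 4 libraries, the largest rises were those of Wfdc21 (log2 1.37), Rhou (1.25), Mctp2 (1.23), Slfn4 (1.16), Lrg1 (1.14), Padi4 (1.08), the enzyme that citrullinates histones in neutrophils, S100a8 (1.07), the partner of S100a9 in calprotectin, Nrg1 (1.06), Ear2 (1.05) and Fpr2 (1.05), a formyl peptide receptor. S100a8 had 0.34 in monocytes with under 50 neutrophil-marker UMIs per 10000, and it is one of those markers. In thinned cells Slfn4 had -0.06 (adjusted p = 0.980, edgeR), and Rhou, Lrg1, Nrg1 and Fpr2 did not pass either. When a library was left out, the adjusted p of Wfdc21, Nrg1 and Ear2 reached 0.0927, 0.0698 and 0.0952 (edgeR). Mctp2, Padi4 and S100a8 passed in thinned cells and whichever library was left out. Among called genes picked by the same level and direction, the largest falls were those of Ctsk (-4.24), the osteoclast collagenase, Cd7 (-3.80), Cacnb2 (-3.19), Cd209a (-2.99), Myo1d (-2.97), Plcb4 (-2.86), Ust (-2.44), Ctnnd2 (-2.39), Grap2 (-2.29) and Acp5 (-2.25), the osteoclast acid phosphatase. A few cells had 10 or more osteoclast-marker UMIs per 10000. Without them Ctsk had a log2 fold change of -1.41 (adjusted p = 0.129, edgeR) and Acp5 of -0.32 (adjusted p = 0.531, edgeR). Both are themselves among the osteoclast markers by which cells were removed, so part of their change was fixed in advance. Myo1d, which is not, had -0.42 (adjusted p = 0.761, edgeR). Without the osteoclast-marker cells Plcb4 had -1.71 and still passed, and Cacnb2 was too low to be tested. Without cells at 10 or more dendritic-marker UMIs per 10000, Cd7, Ctnnd2 and Cd209a, itself such a marker, were too low to be tested. Grap2 and Cacnb2 did not pass there (adjusted p = 0.0597 and 0.0831, edgeR). Ust (-1.85), Ctsk, Myo1d, Plcb4 and Acp5 still passed.

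Cells with at least 10 dendritic-marker UMIs per 10000 were 5.47% and 20.6% of positive monocytes in the adenosine libraries and 9.15% and 9.80% in the controls, against 28.0% and 44.9% of negative monocytes in the adenosine libraries and 29.3% and 29.4% in the controls. Without these cells 85 genes were called over all genes tested, against 523 with them. Of the dendritic-cell-like list 1 of 10 tested genes then fell, and of the neutrophil-like list 4 of 18 rose. The list counts of the marker subsets are given as counts and are not set against a share over all genes. H2-Ab1 had a log2 fold change of -0.16 in those remaining cells (adjusted p = 0.624, edgeR), but it is itself one of the dendritic markers by which cells were removed. Cd74, which is not, had -0.49 (adjusted p = 0.0725, edgeR), and Mmp8 had 0.65 (adjusted p = 0.0488, edgeR). Leaving out each library in turn gave 233 to 485 calls, with 11 or 12 of the dendritic-cell-like genes called lower each time and 5 to 10 of the neutrophil-like genes called higher. The lowest count, 233, was without adenosine library 1, and 314 were called without adenosine library 2. Cells thinned to 1500 UMIs gave 178 calls, of which 140 were among the 523.

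Within the chitinase family, Chil3 was the most abundant member in these cells by UMIs, which are not corrected for length because a 3′ assay counts molecules. Chil1, which encodes the related secreted lectin YKL-40, came next with 12337 UMIs. It was found mainly in neutrophils and did not share the peak at division. It had 108 and 186 CPM in dividing neutrophils of the adenosine libraries and 138 and 197 CPM in those of the controls. Mature neutrophils still had 112 and 155 CPM in the adenosine libraries and 164 and 120 CPM in the controls, and classical monocytes at most 3.29 CPM. Chil5, a further chitinase-like gene, had 40.8 and 42.4 CPM in immature neutrophils of the adenosine libraries and 41.6 and 25.5 CPM in those of the controls, but at most 2.31 CPM in dividing ones. Chit1, chitotriosidase, an active chitinase, was low and highest at division, with 7.61 and 5.88 CPM in the adenosine libraries and 9.29 and 1.59 CPM in the controls. Ovgp1, oviductin, had 40.7 and 30.5 CPM in mature neutrophils of the adenosine libraries and 28.9 and 5.28 CPM in those of the controls.

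Of the rest of the family, Ctbs, the lysosomal chitobiase, had 3698 UMIs and Chid1 2165. Chil6 had 11 UMIs and Chia1, the acidic chitinase, 6. Between adenosine and control, 5, 5, 4 and 2 members were tested in immature neutrophils, mature neutrophils, classical monocytes and macrophages, and none was called by edgeR.

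The genes whose levels most resembled Chil3 over 30 sums of stage and library, by Pearson correlation of log2(CPM + 10) among 6367 genes, were Galns, a lysosomal sulfatase (0.93), Smim5 (0.89), Usp39 (0.87), Tesk2 (0.87), Scp2 (0.87), Flot2 (0.86), Lmo1 (0.86), Pafah2 (0.85), Mlst8 (0.85) and Arhgdib (0.84). Sums of 1 library share their depth and free RNA, so these are descriptions. Galns had 123 and 84.5 CPM in dividing neutrophils of the adenosine libraries and 102 and 84.1 CPM in those of the controls. In mature neutrophils Galns had 23.7 and 21.97 CPM in the adenosine libraries and 17.2 and 7.21 CPM in the controls. Its likeness was 0.98 over the 15 granulocyte sums and 0.73 over the 15 monocyte sums, while Scp2 had 0.41 over the monocyte sums.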

How the data were processed

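Single-cell RNA of fracture callus was read with 10x Chromium 3′ chemistry, per the labels' protocols. The deposited matrices hold UMI counts per gene and cell barcode; Cell Ranger 7.0.0 and mm10 are named, per the submitters' processing notes. Cells with at least 200 genes and under 10% mitochondrial UMIs were kept, and the highest Scrublet doublet scores (scanpy 1.11.5) were removed at 0.8% per 1000 barcodes, because the automatic threshold marked none in 3 libraries. Stages were assigned by UMIs per 10000 of marker genes without Chil3; Leiden clusters (29) were the alternative, and both gave 89.3% of myeloid cells the same stage. CPM is Chil3 UMIs per 1000000 UMIs of the stage in that library. Intervals and floors (3 counts) cover counting error only.

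Summed counts were tested with edgeR 4.0.16 (quasi-likelihood, filterByExpr, TMM, Benjamini-Hochberg at 0.05) in stages with at least 50 cells in every library, and between Chil3-positive and Chil3-negative classical monocytes with the library as a block. The test was checked on simulated counts. Alternatives were DESeq2 1.42.0, another normalization, no filter on low counts, thinned cells, other gates, no doublet removal and leaving out each library. Low neutrophil-marker, osteoclast-marker and dendritic-marker monocytes, crossed replicate numbers and subtraction of lymphocyte UMIs were added after seeing the data. Named monocyte genes are the 10 largest changes each way among called genes with at least 20 CPM in the higher mean and the same direction in 4 libraries, plus list members; the genes given for the marker subsets were picked after their values were seen. Chil3, the stages and the gene lists were chosen with earlier results of these data known. Same-numbered libraries of the groups share only a number in the labels. Gene coordinates are from GENCODE M21, and promoter sequences from RefSeq on GRCm38.p6. The result of 1 list gene is not reported here.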

Additional observations from a re-analysis of the deposited data

How the results depend on the processing

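Chil3 levels and differences kept their direction and stayed within the spread between libraries under most alternatives (45 of 48 level values and 93 of 96 differences). Part of the count of differences was fixed in advance. With 2 libraries per group, leaving out 1 cannot move a difference beyond the pooled SD, and the replicate block cannot change it. For a left-out library only a change of direction could show. The mean mature neutrophil level was 70.0 CPM, 138 CPM by clusters, and 3.78 CPM with lymphocyte UMIs per cell subtracted, where its log2 difference between adenosine and control became -0.33. The nonclassical monocyte level was 119 CPM by clusters. Leaving out each library gave log2 differences of -0.97 to 0.37 in progenitors, -0.53 to 6.27 in nonclassical monocytes, 1.39 to 2.36 in classical monocytes and 0.22 to 3.50 in mature neutrophils. Neutrophil Chil3 was 1085 CPM at the mean stage shares of the libraries. The cause of these shifts was not tested. Genes called between adenosine and control in immature neutrophils, mature neutrophils, classical monocytes and macrophages, 0 by edgeR, were 140, 447, 336 and 83 with no filter on low counts, 2, 34, 5 and 2 by DESeq2, and 0 to 124, 0 to 1867, 0 to 7 and 0 to 53 when each library was left out. With the replicate block 3 were called in immature neutrophils and 0 in the other 3 stages, and the block left the Chil3 differences as they were; the deviations of same-numbered libraries correlated at 0.209, -0.0198, -0.129 and -0.0676 in these stages, which is a hint and no pairing. With crossed numbers as the block, 36 were called in classical monocytes. For Chil3-positive against Chil3-negative monocytes, the 523 calls became 970 with no filter, 288 by DESeq2, 178 in thinned cells, 85 without cells at 10 or more dendritic-marker UMIs per 10000, 1 with no replicate block, and 233 to 485 when each library was left out. Precision is limited by 2 libraries per group and, in control library 2, by few progenitors, dividing neutrophils and nonclassical monocytes.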
